A study of Mus musculus with 28 samples.

Results

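The 52 genes examined here are nuclear-encoded members of the mitochondrial respiratory chain. They comprise 29 subunits of complex I, 4 of complex II, 7 of complex III, 10 of complex IV, the electron carrier cytochrome c (Cycs) and Cox6a2, the heart and skeletal muscle isoform of a complex IV subunit. The members were chosen by gene symbol and not by a cut on measured values, but with earlier results of these data known. Of 56951 genes in either of the 2 count tables, these 52 were all found in both tables, and all 52 passed the filter on low counts in both experiments.

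Messenger RNA was sequenced from bone marrow-derived macrophages of mice aged 2 to 4 months, male and female, on a C57BL/6 background. Marrow cells were cultured for 6 days with L929-conditioned medium, a source of macrophage growth factor, and for 24 h without it. The first experiment (100 cycles of sequencing, 12 libraries) compared WT cells, Irgm1-KO cells, which lack the interferon-inducible GTPase Irgm1, and Irgm_IFNAR-KO cells, which lack Irgm1 and also the receptor for type I interferons, with 4 libraries in each group. The second (50 cycles, 16 libraries) crossed WT and Irgm1KO genotypes with a control condition and 50 µM fenofibrate, a drug that activates the nuclear receptor PPARα, again with 4 libraries in each group. The genotypes came from the mice themselves, so every cell of a culture carried them. How long fenofibrate was present, and what the control cells received, is not stated in the labels. They do not say whether replicates came from separate animals, and a p-value here reflects how far these libraries differ among themselves, part of which may be technical. In the second experiment Xist, expressed from the inactive X chromosome of female cells, ran from 0.00843 to 110 counts per 1000000 within WT control and from 1.31 to 143 within Irgm1KO control, so the replicates of a group were not all repeats of a single culture.

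The respiratory chain passes electrons from NADH (complex I) or succinate (complex II) through ubiquinone to complex III, then through cytochrome c to complex IV, which reduces oxygen. Complexes I, III and IV pump protons, and the ATP synthase uses the resulting gradient. Most subunits are encoded in the nucleus and a few in mitochondrial DNA, so the complexes are assembled from the products of both genomes. In macrophages the balance between respiration and glycolysis shifts with inflammatory activation, and complex II and cytochrome c also have roles outside energy supply, in succinate handling and in apoptosis.

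The promoter sequences of 3 members are shown because their mRNAs took different courses in the results below: Cycs was higher in Irgm1-KO and Irgm1KO control cells than in WT, and Uqcrh and Cox7b were lower in Irgm1KO control cells and higher with fenofibrate in Irgm1KO cells. Each is the 250 bases before the annotated start from RefSeq, build GRCm38.p6, read 5′ to 3′ on the gene's strand, at chr6:50566570-50566819 (minus strand) for Cycs, chr4:116075071-116075320 (minus strand) for Uqcrh and chrX:106015450-106015699 (plus strand) for Cox7b. Capitals mark matches to the 3 motifs searched on both strands, the NRF1 core CGCANGCG, the ETS core CCGGAAG (bound by GABP, also called NRF2) and the cAMP response element TGACGTCA. The first 2 are textbook motifs of nuclear respiratory genes.
Cycs: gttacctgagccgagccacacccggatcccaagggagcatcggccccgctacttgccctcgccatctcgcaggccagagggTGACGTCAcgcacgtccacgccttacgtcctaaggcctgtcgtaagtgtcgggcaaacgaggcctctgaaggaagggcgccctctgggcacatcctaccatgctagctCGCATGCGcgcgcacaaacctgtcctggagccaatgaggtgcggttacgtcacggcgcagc
Uqcrh: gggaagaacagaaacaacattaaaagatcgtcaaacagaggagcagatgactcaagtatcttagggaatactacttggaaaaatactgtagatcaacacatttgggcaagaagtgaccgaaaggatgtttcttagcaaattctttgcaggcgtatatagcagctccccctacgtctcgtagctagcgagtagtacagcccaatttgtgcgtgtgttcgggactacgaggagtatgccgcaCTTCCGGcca
Cox7b: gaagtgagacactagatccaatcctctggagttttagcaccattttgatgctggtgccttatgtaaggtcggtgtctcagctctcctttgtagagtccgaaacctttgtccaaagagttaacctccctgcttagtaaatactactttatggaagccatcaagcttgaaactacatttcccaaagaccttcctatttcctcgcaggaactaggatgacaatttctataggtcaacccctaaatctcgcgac
In Cycs the cAMP response element lay 169 bases and the NRF1 core 61 bases before the start, and the matches did not overlap. Uqcrh held an ETS core 10 bases before its start, on the opposite strand. None of the 3 motifs was found in the printed Cox7b window, which says only that these letters are not there. A promoter entry was matched by symbol for 41 of the 52 members. In windows from 250 bases before to 50 after the start, the NRF1 core was in 12 of 41 members (29.3%), in 8.21% of 32851 promoters of the reference table and in 19.1% of 10249 promoters of tested genes. The ETS core was in 10 members (24.4%, against 8.86% and 20.4%), and the cAMP response element in 5 (12.2%, against 1.79% and 3.54%). A match is a description of letters, not of a bound site.

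The 12 libraries of the first experiment held 48.7 to 70.5 M counts each (M, mega), and the 16 of the second 82.4 to 120.8 M. Irgm1, which checks the labels, was at 1188.5 to 1352.4 counts per 1000000 of the scaled library size (CPM) in WT, 628 to 839 in Irgm1-KO and 641 to 786 in Irgm_IFNAR-KO libraries. It was at 1469.8 to 1673.1 CPM in the WT groups of the second experiment and 991 to 1144.1 in its Irgm1KO groups, so knockout libraries kept counts on this gene but lay below every WT library. Ifnar1 was at 128 to 141 CPM in WT, 112 to 127 in Irgm1-KO and 53.1 to 114 in Irgm_IFNAR-KO libraries, and the last group did not differ from WT at an adjusted p below 0.05 (adjusted p = 0.119, edgeR). All 10 macrophage markers were present in every group. Their summed level was 23042.2 to 43595.1 CPM in WT, 10968.6 to 16669.1 in Irgm1-KO and 30771.0 to 42393.8 in Irgm_IFNAR-KO. Lyz2 was the largest single part (14485.4 to 35334.0, 3709.8 to 8813.3 and 22322.1 to 34047.1 CPM). It made up most of the sum in WT and Irgm_IFNAR-KO, but not in every Irgm1-KO library. The sum in the second experiment was 23601.1 to 32750.2 CPM in WT control, 14741.5 to 23833.5 in WT fenofibrate, 11666.4 to 14139.0 in Irgm1KO control and 15931.5 to 19510.1 in Irgm1KO fenofibrate. Lyz2 was again the largest part, with means of 17672.5, 12329.7, 5352.9 and 10610.0 CPM in that order. At an adjusted p below 0.05 (edgeR), 1 of 10 rose and 3 fell in Irgm1-KO (19.8% and 20.7% of all genes). In Irgm_IFNAR-KO against Irgm1-KO 4 rose and 3 fell (21.5% and 21.3%). In Irgm1KO control 1 rose and 6 fell (27.3% and 26.1%). Fenofibrate gave 1 rise and 6 falls in WT (18.1% and 16.9%) and 2 and 4 in Irgm1KO (23.5% and 22.2%). Neutrophil markers summed to 13.8 to 35.4, 4.61 to 8.66 and 13.3 to 23.2 CPM in WT, Irgm1-KO and Irgm_IFNAR-KO. In WT control, WT fenofibrate, Irgm1KO control and Irgm1KO fenofibrate they summed to 2.22 to 5.22, 2.15 to 2.89, 0.304 to 0.582 and 0.861 to 2.48 CPM. Conventional dendritic cell markers summed to 46.0 to 54.3, 21.6 to 26.0 and 57.7 to 65.7 CPM in the groups of the first experiment, and to 27.3 to 45.7, 8.5 to 24.7, 54.8 to 59.0 and 55.8 to 71.7 in those of the second. Plasmacytoid ones summed to 67.0 to 107, 67.7 to 80.8 and 66.1 to 81.4 CPM in the groups of the first. In those of the second they summed to 109 to 128, 77.8 to 96.8, 87.7 to 97.3 and 84.7 to 93.1 CPM. Tcf4 made up most of this, with means of 81.7, 60.2 and 71.5 CPM and of 110, 81.5, 77.7 and 80.1. Pacsin1 had means of 3.11, 12.1 and 0.988 CPM and of 1.94, 0.859, 9.56 and 1.52. Siglech, Klk1 and Ly6d reached at most 0.0454 CPM in a library of the second and were not measured in the first. Fibroblast or stromal markers summed to at most 1.1 CPM, with 2 of 6 measured in the first experiment and 6 in the second. Erythroid, T or NK cell and B cell markers summed to at most 0.119 CPM in the second experiment, and none of them was measured in the first. Of the other lists, 6 of 8 neutrophil, 5 of 6 conventional and 5 of 8 plasmacytoid markers were measured in the first. The part of these marker levels in the results below was not tested. In bulk libraries fewer cells of a type and less RNA per cell cannot be told apart.

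Of the 12 libraries of the first experiment, 3 stood apart in these genes. WT replicate 2, Irgm1-KO replicate 3 and Irgm_IFNAR-KO replicate 4 lay above their groups by a median of 0.51, 0.47 and 0.39 on the log2 scale over the 52 members, with 50, 51 and 51 members above the group mean. The other 9 libraries had medians between -0.34 and 0.02, while the median over all genes stayed between -0.01 and 0.01. These 3 libraries also had the lowest Xist of their groups (50.8, 97.9 and 97.2 CPM, where the first experiment spanned 50.8 to 231), and the part of that in the result was not tested. The within-group SD of log2 CPM had a median of 0.332 over the members, against 0.174 over 7854 genes with at least 10 CPM. The corresponding medians in the second experiment were 0.085 and 0.091 (8082 genes), and a single library, Irgm1KO fenofibrate replicate 2, lay 0.17 above its group with 49 of 52 members above the mean. The summed CPM of the members was 5221.9 ± 1626.8 in WT, 4900.1 ± 1259.5 in Irgm1-KO and 5474.8 ± 1182.0 in Irgm_IFNAR-KO (SD, n = 4), and 3340.1 ± 85.4, 3367.6 ± 88.7, 3750.1 ± 90.2 and 4034.4 ± 292 in WT control, WT fenofibrate, Irgm1KO control and Irgm1KO fenofibrate.

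**Figure D1:**
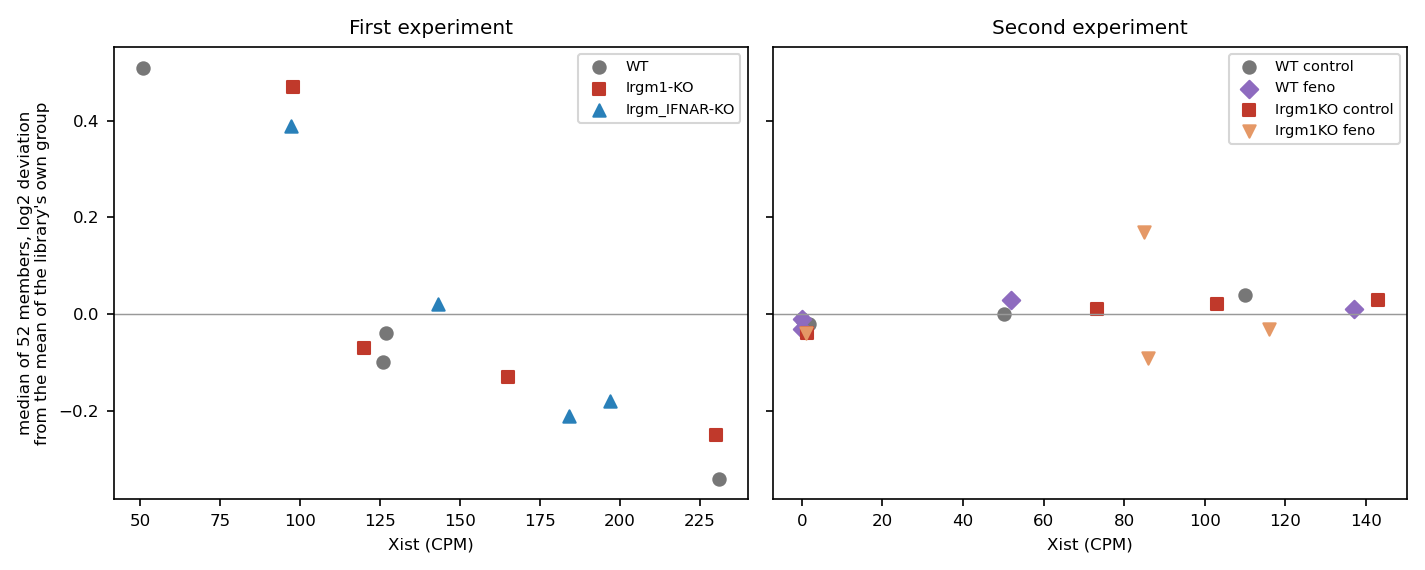
Median over the 52 members of the log2 deviation from the mean of the library's own group (vertical axis) against Xist in CPM (horizontal axis), with 1 point per library and 1 panel per experiment. The 3 libraries of the first experiment with medians of 0.51, 0.47 and 0.39 stand above the other 9, and in the second experiment Irgm1KO fenofibrate replicate 2 lies at 0.17.

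A member counts as called where the adjusted p of the quasi-likelihood test in edgeR was below 0.05, with Benjamini-Hochberg adjustment over all genes tested. Comparisons within an experiment share libraries, so their values are set side by side and not as independent support for each other. Irgm1-KO against WT called 3 of 52 members higher and 0 lower (5.77% and 0%), where 19.8% and 20.7% of all 13998 genes were called higher and lower. At an unadjusted p below 0.05 it held 5 higher and 2 lower, and DESeq2 called 5 higher and 2 lower. Irgm_IFNAR-KO against Irgm1-KO called 3 higher and 2 lower (5.77% and 3.85%), against 21.5% and 21.3% of all genes. For Irgm_IFNAR-KO against WT edgeR called 0 of 52 in either direction, where 3.94% and 8.22% of all genes were called. In that comparison 2 members had an unadjusted p below 0.05, both higher, and DESeq2 called 1 higher.

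In the second experiment the members moved in larger numbers. Irgm1KO control against WT control called 30 of 52 higher and 5 lower (57.7% and 9.62%), beside 27.3% and 26.1% of all 15429 genes, and the median log2 fold change was 0.22 over the members and 0.00 over all genes. Fenofibrate in WT called 9 higher and 3 lower (17.3% and 5.77%), beside 18.1% and 16.9% of all genes, with a median of 0.04 against 0.02. Fenofibrate in Irgm1KO called 21 higher and 3 lower (40.4% and 5.77%), beside 23.5% and 22.2%, with a median of 0.12 against 0.01. The interaction, the fenofibrate effect in Irgm1KO minus that in WT, was called positive for 12 and negative for 5 members (23.1% and 9.62%), beside 14.9% and 14.7% of all genes. Control and fenofibrate libraries of the same number deviated together within a genotype, and with the replicate number as a block the counts were 11 higher and 4 lower in WT, 27 higher and 5 lower in Irgm1KO, and 13 positive and 6 negative interactions. The number called lower in Irgm1KO was 10 without Irgm1KO fenofibrate replicate 2. Values below are from the fit without the block, and the block is named where it changed the call.

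**Figure D2:**
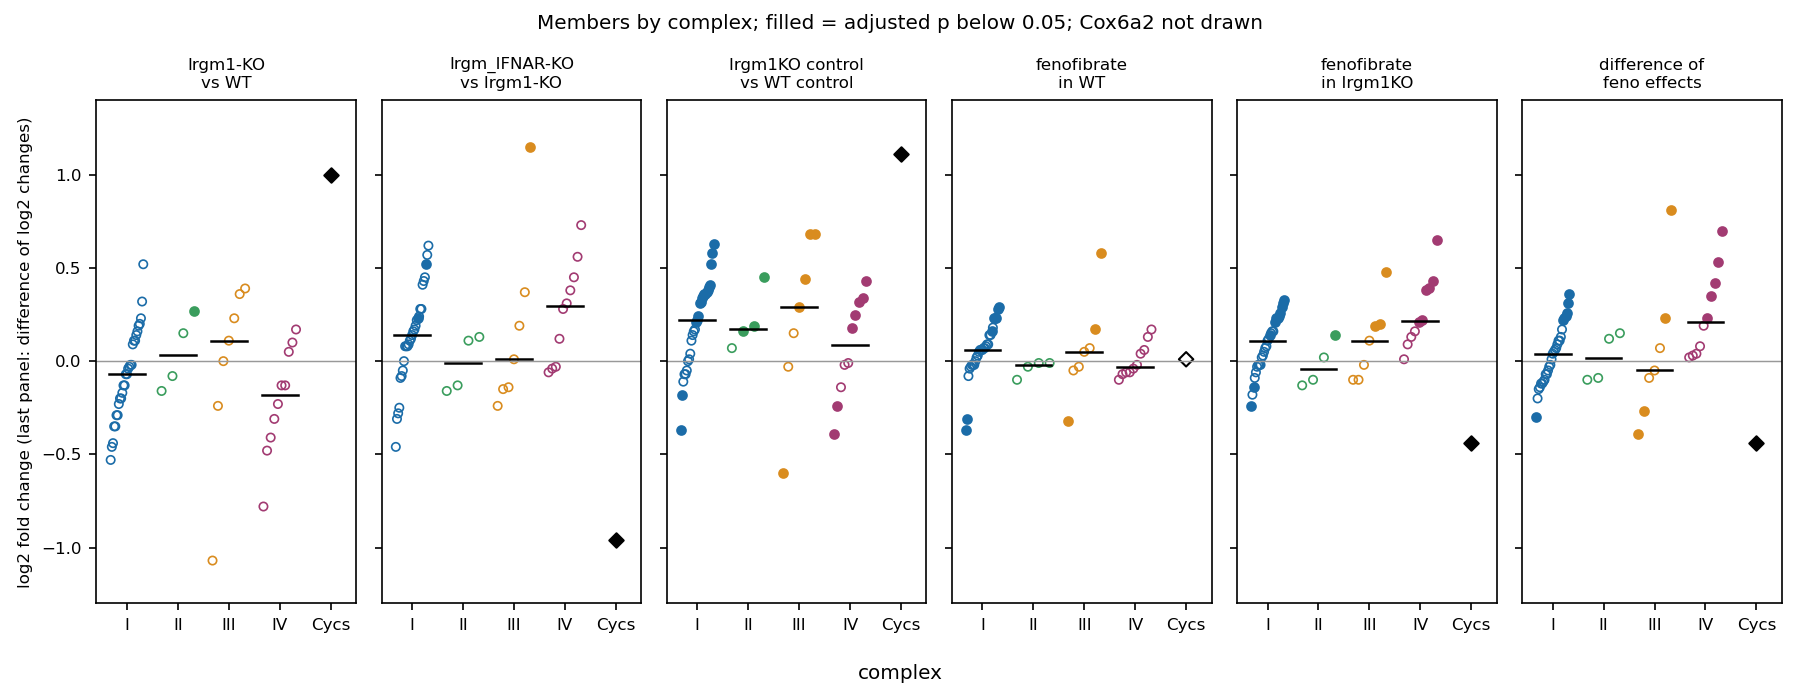
Log2 fold change of each member (vertical axis) by complex (horizontal axis) in 2 comparisons of the first experiment, 3 of the second and the interaction. Filled points passed an adjusted p of 0.05, bars are medians, the diamond is Cycs, and Cox6a2 is not drawn. Filled points are most frequent for Irgm1KO control against WT control, with 30 members called higher, and complex IV has a median of 0.21 with fenofibrate in Irgm1KO.

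Cytochrome c, the soluble carrier between complexes III and IV, was about 2-fold higher in Irgm1-KO and Irgm1KO control cells than in WT. Cycs (ENSMUSG00000063694) read 55.3, 83.1, 65.7 and 68.8 CPM in WT, 123, 130, 167 and 125 in Irgm1-KO, and 63.1, 64.1, 66.6 and 85.8 in Irgm_IFNAR-KO. Every Irgm1-KO library lay above every library of the other 2 groups, which overlapped. The fold was 2.00 against WT (log2 1.00, SE 0.148, adjusted p = 0.000188), and Cycs was lower by -0.96 (log2, SE 0.148, adjusted p = 0.000223) in Irgm_IFNAR-KO than in Irgm1-KO. Between Irgm_IFNAR-KO and WT the log2 fold change was 0.03 (SE 0.147, adjusted p = 0.954).

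In the second experiment Cycs read 66.4, 58.6, 64.8 and 59.4 CPM in WT control and 64.4, 60.2, 62.9 and 63.0 in WT fenofibrate. In Irgm1KO it read 144, 140, 125 and 129 CPM without and 101, 107, 91.5 and 99.1 with fenofibrate. The Irgm1KO control libraries stood above all others, and the Irgm1KO fenofibrate libraries lay between them and the WT libraries. Cycs rose 2.16-fold in Irgm1KO control (log2 1.11, SE 0.0593, adjusted p = 4.7e-10) and fell with fenofibrate in Irgm1KO (log2 -0.44, SE 0.0586, adjusted p = 1.5e-05). In WT the fenofibrate value was 0.01 (SE 0.0588, adjusted p = 0.931), and the interaction was called (-0.44, SE 0.083, adjusted p = 0.000821). Every Cycs call held under each alternative processing. The named pseudogenes Cycs-ps2 and Cycs-ps3 were at no more than 0.0505 CPM on average in any group of the second experiment.

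Cox6a2 (ENSMUSG00000030785) was scarce in all groups and had the largest fold changes of the 52. It read 0.305, 0.261, 0.627 and 0.581 CPM in WT, 3.46, 4.48, 6.58 and 5.52 in Irgm1-KO, and 0.505, 0.804, 0.52 and 0.816 in Irgm_IFNAR-KO. These rest on 12 to 40 counts per WT library, 163 to 389 per Irgm1-KO library and 29 to 47 per Irgm_IFNAR-KO library. Irgm1-KO libraries did not overlap with the other groups. The log2 fold change was 3.46 against WT (11-fold, SE 0.301, adjusted p = 2.6e-06), -2.92 for Irgm_IFNAR-KO against Irgm1-KO (SE 0.287, adjusted p = 5.7e-06) and 0.54 for Irgm_IFNAR-KO against WT (SE 0.324, adjusted p = 0.39).

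In the second experiment Cox6a2 read 0.188, 0.175, 0.253 and 0.312 CPM in WT control and 6.27, 8.94, 7.09 and 17.9 in WT fenofibrate. In Irgm1KO it read 2.7, 2.14, 2.07 and 2.45 CPM without and 3.61, 4.4, 5.4 and 4.68 with fenofibrate. No pair of these 4 groups overlapped, and the spread was widest in WT fenofibrate, where replicate 4 was the highest. The log2 fold change was 3.31 for Irgm1KO control against WT control (9.89-fold, SE 0.346, adjusted p = 1.1e-06), 5.41 for fenofibrate in WT (42.5-fold, SE 0.346, adjusted p = 3.2e-07) and 0.95 for fenofibrate in Irgm1KO (1.93-fold, SE 0.27, adjusted p = 0.00921). The fenofibrate effect was smaller in Irgm1KO than in WT by -4.46 (log2, SE 0.436, adjusted p = 4.7e-06), and all these Cox6a2 calls held under each alternative.

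Cox6a2 remained the minor isoform beside Cox6a1, the form found in most tissues. Per kilobase of transcript, it made up 0.324% ± 0.158 of the Cox6a1 and Cox6a2 pair in WT, 3.19% ± 0.43 in Irgm1-KO and 0.455% ± 0.0737 in Irgm_IFNAR-KO (SD, n = 4). The share was 0.226% ± 0.0557 in WT control, 7.89% ± 3.51 in WT fenofibrate, 1.81% ± 0.172 in Irgm1KO control and 3.0% ± 0.54 in Irgm1KO fenofibrate. Striated muscle markers, of which 2 of 10 were measured in the first experiment and 10 in the second, summed to between 0.474 and 1.13 CPM in every library, and Ckm, the muscle creatine kinase, was at no more than 0.169 CPM.

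The 2 expressed neighbours of Cox6a2 on its chromosome, Armc5 and 9130023H24Rik, were also higher in Irgm1-KO and Irgm1KO control than in WT, by less, and fell with fenofibrate in Irgm1KO, where Cox6a2 rose. Armc5 was at 22.7 ± 4.34, 31.1 ± 3.74 and 20.9 ± 1.35 CPM in WT, Irgm1-KO and Irgm_IFNAR-KO, and at 22.6 ± 1.29, 20.4 ± 0.964, 30.5 ± 1.83 and 20.5 ± 1.25 CPM in WT control, WT fenofibrate, Irgm1KO control and Irgm1KO fenofibrate (SD, n = 4). It rose by 0.46 in Irgm1-KO (log2, SE 0.134, adjusted p = 0.0167) and was lower by -0.57 in Irgm_IFNAR-KO than in Irgm1-KO (adjusted p = 0.00423). It rose by 0.43 in Irgm1KO control (SE 0.059, adjusted p = 1.1e-05) and fell with fenofibrate there (-0.57, SE 0.0591, adjusted p = 9.8e-07). The value in WT fenofibrate was -0.15 (adjusted p = 0.0665). 9130023H24Rik rose in Irgm1-KO (0.43, SE 0.0883, adjusted p = 0.00181) and was lower in Irgm_IFNAR-KO than in Irgm1-KO (-0.31, adjusted p = 0.0124). It rose in Irgm1KO control (0.41, SE 0.0606, adjusted p = 2.9e-05) and fell with fenofibrate in Irgm1KO (-0.71, SE 0.0611, adjusted p = 1.5e-07). Itgad and 4931431B13Rik reached at most 0.0592 and 0.0343 CPM in a library of the second experiment, Gm39091 was at 0 there, and Tgfb1i1 reached at most 0.276 CPM in any library.

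**Figure D3:**
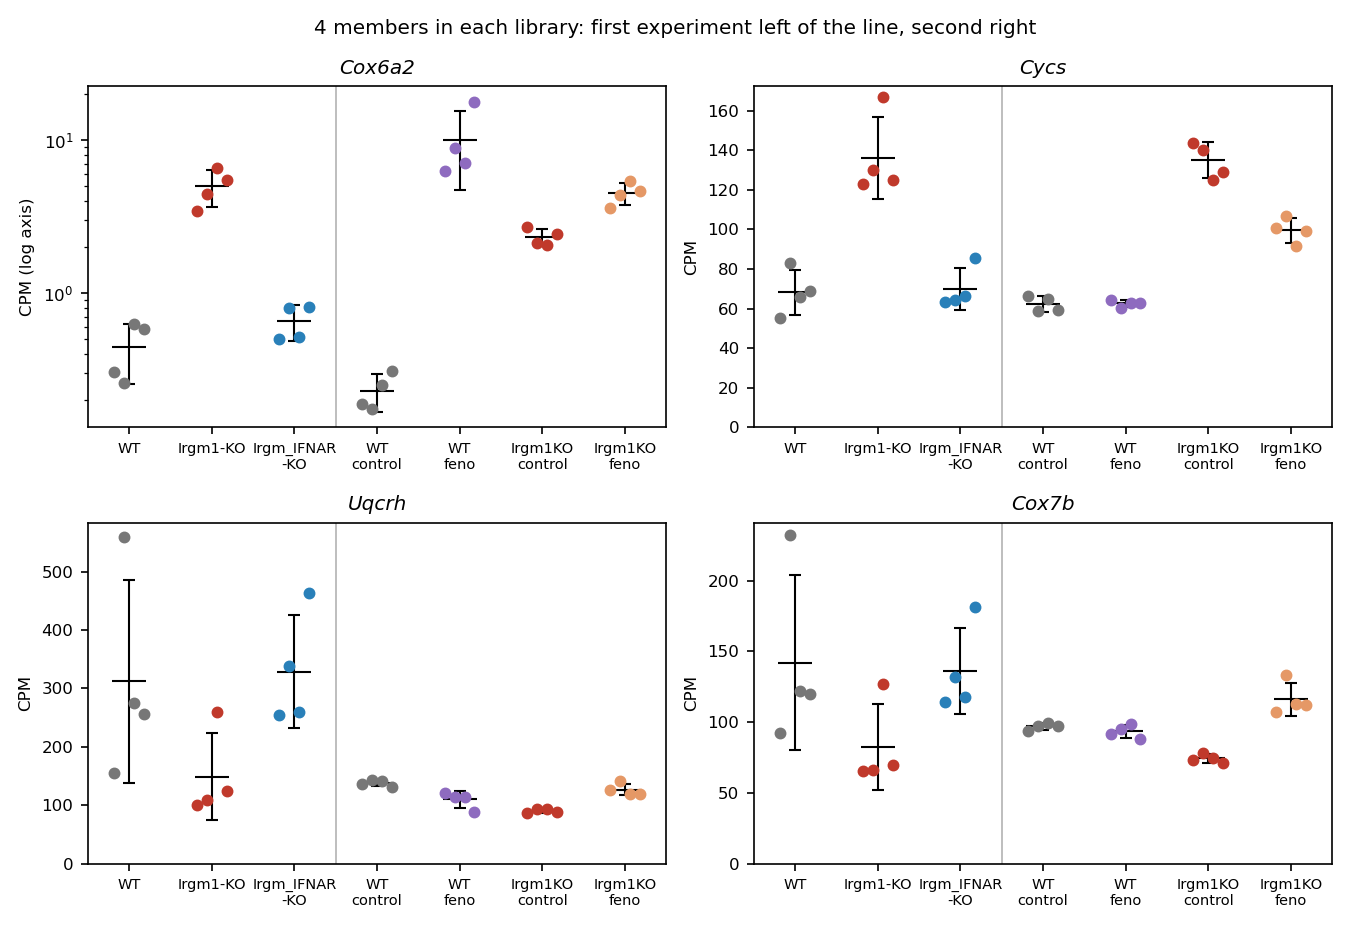
CPM per library (vertical axes, log scale for Cox6a2) in the 7 groups (horizontal axes) for Cox6a2, Cycs, Uqcrh and Cox7b, with mean and SD as bars. Cycs and Cox6a2 are higher in the Irgm1-KO and Irgm1KO control libraries than in WT, Cox6a2 is highest in WT fenofibrate (6.27 to 17.9 CPM), and Uqcrh and Cox7b are lower in Irgm1KO control than in WT control and Irgm1KO fenofibrate.

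Complex I, the NADH dehydrogenase, rose in part in Irgm1KO control cells. Against WT control, 16 of 29 subunits were called higher and 2 lower (55.2% and 6.9%, beside 27.3% and 26.1% of all genes). The median log2 fold change was 0.22. Of the 6 members that belong to its conserved core, 5 rose and 0 fell by edgeR, and of 23 accessory subunits 11 rose and 2 fell. Ndufv1, which binds NADH, rose from 46.9 ± 2.26 to 58.6 ± 1.45 CPM (log2 0.32, SE 0.0477, adjusted p = 2.7e-05). Ndufs7, an iron-sulfur subunit near the quinone site, rose from 24.3 ± 1.13 to 34.9 ± 0.755 CPM (0.52, SE 0.0675, adjusted p = 6.8e-06), the largest rise of the core. Ndufv2, another iron-sulfur subunit, rose from 53.5 ± 1.09 to 70.4 ± 4.31 CPM (0.4, SE 0.0574, adjusted p = 2.1e-05). Ndufs1, the large iron-sulfur subunit, was at 70.8 ± 1.54 and 68.4 ± 1.15 CPM and was not called (-0.05, SE 0.0401).

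Between Irgm1-KO and WT of the first experiment edgeR called 0 of the 29 (2 at an unadjusted p below 0.05, both higher). Ndufs7 was at 36.8 ± 5.74, 46.1 ± 6.16 and 37.2 ± 5.31 CPM in WT, Irgm1-KO and Irgm_IFNAR-KO, with a log2 fold change of 0.32 for Irgm1-KO (SE 0.136, adjusted p = 0.0772). Ndufv1 was at 56.2 ± 13, 59.7 ± 11.1 and 63.1 ± 10.3 CPM in the same order. The SDs here were several times those of the second experiment. Ndufs3, a subunit of the same peripheral arm, was at 65.9 ± 8.6, 71.3 ± 9.62 and 71.3 ± 12.1 CPM in these groups. Ndufs1 was at 73.5 ± 6.23, 71.4 ± 3.97 and 84.0 ± 3.37 CPM and rose in Irgm_IFNAR-KO against Irgm1-KO (0.23, SE 0.077, adjusted p = 0.0278), with all 4 libraries (79.9 to 87.8 CPM) above all 4 of Irgm1-KO (66.8 to 76.4). Ndufb5, an accessory membrane-arm subunit, rose in the same comparison (69.8 ± 14.7, 54.9 ± 12.3 and 78.8 ± 14.3 CPM in WT, Irgm1-KO and Irgm_IFNAR-KO; 0.52, SE 0.185, adjusted p = 0.0386), but its groups overlapped. Both calls were lost without Irgm1-KO replicate 1, 2 or 4 or Irgm_IFNAR-KO replicate 2 or 4, and that of Ndufs1 also without Irgm_IFNAR-KO replicate 3. The highest adjusted p over the alternatives was 0.0822 for Ndufs1 and 0.114 for Ndufb5.

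With fenofibrate 6 of 29 complex I subunits rose in WT and 2 fell (20.7% and 6.9%, beside 18.1% and 16.9% of all genes), a share of rises near that of all genes. In Irgm1KO 10 rose and 2 fell (34.5% and 6.9%, beside 23.5% and 22.2%), of which 9 rises and 1 fall were accessory subunits. Ndufs8, an iron-sulfur core subunit, was at 32.9 ± 1.14, 25.4 ± 0.508, 38.5 ± 2.03 and 34.9 ± 1.6 CPM in WT control, WT fenofibrate, Irgm1KO control and Irgm1KO fenofibrate, and at 69.3 ± 24.2, 65.9 ± 21.2 and 76.7 ± 18.5 CPM in the groups of the first experiment. It rose in Irgm1KO control (0.22, SE 0.0461, adjusted p = 0.000604) and fell with fenofibrate in WT (-0.37, SE 0.0463, adjusted p = 1.9e-05). In Irgm1KO its fall of -0.14 (adjusted p = 0.0212) was lost without the filter on low counts, with only the compared groups fitted and without Irgm1KO fenofibrate replicate 3, and reached an adjusted p of 0.101 at most, and the interaction was called (0.24, SE 0.0653, adjusted p = 0.012). Ndufv1 rose with fenofibrate in WT to 55.0 ± 2.35 CPM (0.23, SE 0.0477, adjusted p = 0.00139) and was at 63.1 ± 3.21 in Irgm1KO fenofibrate (0.11, adjusted p = 0.0825, and 0.1, adjusted p = 0.0439, with the block). Ndufs3 was at 46.2 ± 2.46, 47.7 ± 2.71, 53.6 ± 2.04 and 52.7 ± 3.27 CPM across the 4 groups in that order, rose in Irgm1KO control (0.21, SE 0.0549, adjusted p = 0.00338) and had no call for the drug. Ndufs7 was at 26.0 ± 0.782 in WT fenofibrate and 33.5 ± 4.27 in Irgm1KO fenofibrate, with no call for the drug. Ndufs1 was at 72.6 ± 0.702 in WT fenofibrate and 75.3 ± 4.05 in Irgm1KO fenofibrate, called in the latter (0.14, SE 0.0401, adjusted p = 0.00894), a call lost without Irgm1KO control replicate 2 or Irgm1KO fenofibrate replicate 1 (highest adjusted p 0.0623).

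Among accessory subunits, Ndufs4, whose loss in mice causes a Leigh-like disease, was at 40.0 ± 10.2, 57.4 ± 15.2 and 41.9 ± 6.71 CPM in WT, Irgm1-KO and Irgm_IFNAR-KO. It was at 28.3 ± 1.87, 29.7 ± 1.1, 42.3 ± 1.81 and 35.9 ± 1.89 CPM in WT control, WT fenofibrate, Irgm1KO control and Irgm1KO fenofibrate. It rose in Irgm1KO control (0.58, SE 0.0538, adjusted p = 1.9e-07) and fell with fenofibrate in Irgm1KO (-0.24, SE 0.0536, adjusted p = 0.0017), and the interaction was called (-0.3, SE 0.0759, adjusted p = 0.0064). Ndufa12 had the largest rise of complex I in Irgm1KO control, from 21.0 ± 1.64 to 32.5 ± 1.86 CPM (0.63, SE 0.0768, adjusted p = 3.8e-06), and rose with fenofibrate in WT to 25.6 ± 1.53 (0.28, adjusted p = 0.00883). It was at 26.6 ± 5.68, 31.2 ± 5.71 and 26.2 ± 5.35 CPM in the first experiment, and in Irgm1KO fenofibrate at 34.3 ± 3.94. The interaction of Ndufa12 was not called, but was with the block (-0.21, adjusted p = 0.0466).

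Ndufa1, a small subunit needed early in assembly of the membrane arm, went the other way. It read 48.8, 55.0, 53.6 and 52.3 CPM in WT control and 40.7, 40.7, 39.6 and 41.1 in Irgm1KO control, with no overlap, and it was at 51.6 ± 0.71 in WT fenofibrate and 51.0 ± 3.4 in Irgm1KO fenofibrate. The log2 fold change was -0.37 in Irgm1KO control (SE 0.0478, adjusted p = 6.4e-06) and 0.33 with fenofibrate in Irgm1KO (SE 0.0478, adjusted p = 2.9e-05). Ndufa1 was at 61.7 ± 17.3, 44.8 ± 11.6 and 59.5 ± 11.7 CPM in the first experiment, and -0.46 for Irgm1-KO was not called (SE 0.218, adjusted p = 0.114). Ndufb3, also of the membrane arm, fell from 27.6 ± 0.528 to 24.3 ± 0.563 CPM in Irgm1KO control (-0.18, SE 0.0496, adjusted p = 0.00476) and rose with fenofibrate in Irgm1KO to 30.0 ± 2.04 (0.31, SE 0.0496, adjusted p = 8.8e-05). It was at 29.3 ± 1.44 in WT fenofibrate and at 41.5 ± 11.8, 32.5 ± 8.23 and 43.7 ± 8.34 CPM in the first experiment. Ndufa1 and Ndufb3 were the members of complex I called lower in Irgm1KO control.

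Other complex I members called in at least 2 comparisons changed within a narrower range. Ndufb6 was at 20.5 ± 0.789, 24.0 ± 1.47, 25.4 ± 0.996 and 30.5 ± 2.27 CPM in the 4 groups of the second experiment, and was called higher in Irgm1KO control (0.31), in WT fenofibrate (0.23) and in Irgm1KO fenofibrate (0.26). It was at 37.9 ± 15.1, 37.1 ± 13.5 and 40.2 ± 11.3 CPM in the first. Ndufc1 followed the same order, with 17.2 ± 1.13, 20.2 ± 0.511, 21.9 ± 1.07 and 25.9 ± 3.13 CPM, and was at 26.8 ± 7.23, 25.5 ± 5.89 and 29.1 ± 5.95 CPM in the first experiment. Its call with fenofibrate in Irgm1KO was lost without Irgm1KO fenofibrate replicate 2, and that in WT without WT control replicate 2 or WT fenofibrate replicate 4 (highest adjusted p 0.051 and 0.0701). Ndufa5 was at 16.8 ± 0.719, 20.5 ± 0.421, 21.5 ± 1.86 and 23.8 ± 3.69 CPM in the second experiment and at 20.5 ± 3.15, 22.2 ± 3.06 and 21.0 ± 3.9 in the first, and rose in Irgm1KO control (0.36) and WT fenofibrate (0.29). With fenofibrate in Irgm1KO it was not called, but was with the block (0.14, adjusted p = 0.027). Ndufa10 was at 71.4 ± 0.852, 79.6 ± 3.05, 90.8 ± 2.53 and 93.9 ± 7.38 CPM in the second and 72.9 ± 5.79, 81.4 ± 3.95 and 88.0 ± 11.3 in the first, with calls in Irgm1KO control (0.35) and, lost under 4 of 15 alternatives, in WT fenofibrate (0.16). Ndufb5 was at 46.1 ± 0.804, 48.0 ± 1.79, 47.3 ± 0.99 and 55.4 ± 4.32 CPM in the second and rose with fenofibrate in Irgm1KO (0.23, adjusted p = 0.00115).

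Ndufb8 differed between the experiments more than any other member. It was at 103 ± 66.6 CPM in WT of the first experiment and 5.57 ± 0.253 in WT control of the second, a ratio of 18.6, where the median ratio of the 52 members was 1.51 and the next largest was 2.65 (Ndufb2). The experiments differ in cycles of sequencing, and the part of that in the ratio was not tested. Within the second experiment Ndufb8 fell with fenofibrate in WT, to 4.51 ± 0.297 CPM (-0.31, SE 0.0851, adjusted p = 0.0103). It was at 5.17 ± 0.481 and 4.57 ± 0.473 CPM in Irgm1KO control and Irgm1KO fenofibrate, and at 92.1 ± 57.6 and 104 ± 39.3 CPM in Irgm1-KO and Irgm_IFNAR-KO.

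Of the 4 subunits of complex II, succinate dehydrogenase, 3 rose in Irgm1KO control and 1 in Irgm1-KO. Over all genes 27.3% and 19.8% were called higher in these comparisons. Sdha, the flavoprotein that oxidises succinate, read 246, 209, 238 and 240 CPM in WT, 281, 294, 255 and 292 in Irgm1-KO and 261, 260, 256 and 251 in Irgm_IFNAR-KO. All 4 Irgm1-KO libraries lay above the WT libraries and overlapped with Irgm_IFNAR-KO. The log2 fold change was 0.27 (SE 0.0731, adjusted p = 0.0116), and in Irgm1KO control, at 269 ± 6.81 against 241 ± 6.63 CPM, it was 0.16 (SE 0.0407, adjusted p = 0.00392). With fenofibrate Sdha was at 240 ± 4.72 CPM in WT and 251 ± 10.3 in Irgm1KO, with no call except a fall in Irgm1KO with the block (-0.1, adjusted p = 0.0357). Sdhb, the iron-sulfur subunit, rose from 114 ± 6.26 to 156 ± 7.25 CPM in Irgm1KO control (0.45, SE 0.0604, adjusted p = 8.8e-06) and was at 112 ± 4.59 and 143 ± 12.5 CPM in WT and Irgm1KO fenofibrate, lower in the latter with the block (-0.13, adjusted p = 0.0316). Its SDs were wide in the first experiment, with no call (272 ± 137, 301 ± 134 and 269 ± 83.2 CPM). Sdhc, a membrane anchor, was at 117 ± 8.47, 116 ± 5.7, 133 ± 2.07 and 147 ± 7.04 CPM in the second experiment and at 180 ± 35.3, 170 ± 23.4 and 183 ± 26.6 in the first. Its rise in Irgm1KO control (0.19, adjusted p = 0.00679) held under each alternative, and that with fenofibrate in Irgm1KO (0.14, adjusted p = 0.0435) was lost under 10 of 15, with adjusted p up to 0.157. Sdhd was not called in any comparison, and no subunit of complex II was called with fenofibrate in WT (0 of 4 by edgeR, also at an unadjusted p below 0.05). With the block Sdhd was lower there (-0.11, adjusted p = 0.0416).

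Complex III, the cytochrome bc1 complex, split between its members in Irgm1KO control. There 4 of 7 were called higher and 1 lower (57.1% and 14.3%, beside 27.3% and 26.1% of all genes). Cyc1, the cytochrome c1 that hands electrons to cytochrome c, rose from 39.0 ± 1.76 to 62.3 ± 2.69 CPM (0.68, SE 0.0597, adjusted p = 1.1e-07). Uqcrc1, a core subunit, rose from 101 ± 4.18 to 136 ± 7.17 CPM (0.44, SE 0.0602, adjusted p = 1.3e-05), and was at 97.2 ± 5.92 and 127 ± 9.94 CPM with fenofibrate in WT and Irgm1KO and at 142 ± 25.4, 165 ± 28 and 149 ± 21.5 CPM in the first experiment. Uqcrc2, the other core protein, rose from 113 ± 2.79 to 138 ± 4.14 CPM in Irgm1KO control (0.29, SE 0.0375, adjusted p = 7.3e-06). Uqcrq, a small supernumerary subunit, read 33.0, 31.1, 32.5 and 32.9 CPM in WT control and 53.5, 52.6, 48.1 and 53.0 in Irgm1KO control. Its log2 fold change was 0.68 (SE 0.0769, adjusted p = 1.7e-06), as large as that of Cyc1. Uqcrfs1, the Rieske iron-sulfur protein, was not called, at 86.9 ± 3.96 and 85.2 ± 4.38 CPM (-0.03, SE 0.0536).

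With fenofibrate Uqcrq and Cyc1 rose in WT, and the interaction was called for both. Uqcrq read 46.5, 44.9, 47.0 and 55.0 CPM in WT fenofibrate, with no overlap with the control (0.58, SE 0.0768, adjusted p = 3.4e-05). In Irgm1KO it went from 51.8 ± 2.47 to 59.2 ± 7.32 CPM (0.19, adjusted p = 0.0499), a call lost under 12 of 15 alternatives, and the interaction was -0.39 (SE 0.108, adjusted p = 0.0129). Cyc1 was at 43.8 ± 1.43 CPM in WT fenofibrate (0.17, adjusted p = 0.0365, lost under 7 of 15 alternatives) and 58.0 ± 5.62 in Irgm1KO fenofibrate (-0.1, adjusted p = 0.171), with an interaction of -0.27 (SE 0.0841, adjusted p = 0.0226). Cyc1 in the first experiment was at 69.4 ± 19.6, 91.1 ± 22.5 and 77.0 ± 18 CPM and Uqcrq at 70.6 ± 30.8, 90.6 ± 36.4 and 82.3 ± 28.1. Uqcrfs1 rose with fenofibrate in Irgm1KO, to 97.7 ± 4.26 CPM (0.2, SE 0.0536, adjusted p = 0.00659), and was at 85.1 ± 5.1 in WT fenofibrate. It was at 142 ± 33.3, 120 ± 21.3 and 155 ± 26.5 CPM in the first experiment.

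Uqcrh, the acidic hinge protein that helps cytochrome c1 meet cytochrome c, fell in Irgm1KO control where Cyc1 and Cycs rose. In WT it read 136, 143, 141 and 131 CPM without fenofibrate and 121, 115, 115 and 88.8 with it. In Irgm1KO it read 86.1, 93.4, 94.2 and 88.6 CPM without the drug and 126, 141, 120 and 119 with it. WT control lay above the WT fenofibrate and Irgm1KO control groups without overlap. The log2 fold change was -0.60 in Irgm1KO control (SE 0.0795, adjusted p = 7.9e-06), -0.32 with fenofibrate in WT (SE 0.0792, adjusted p = 0.00448) and 0.48 with fenofibrate in Irgm1KO (SE 0.0794, adjusted p = 0.000108). The interaction, 0.81 (SE 0.112, adjusted p = 7e-05), was the largest positive one among members. In the first experiment Uqcrh read 156, 560, 276 and 257 CPM in WT, 100, 109, 260 and 125 in Irgm1-KO and 254, 338, 260 and 463 in Irgm_IFNAR-KO. The highest value of each group was in the library that stood apart there. The fold against WT missed the threshold (-1.07, SE 0.4, adjusted p = 0.0506), and Irgm_IFNAR-KO was called higher than Irgm1-KO (1.15, SE 0.4, adjusted p = 0.0364), a call lost under 5 of 16 alternatives, without Irgm1-KO replicate 1, 2 or 4 or Irgm_IFNAR-KO replicate 2 or 4 (adjusted p up to 0.101). Without the 3 libraries that stood apart the values were -1.02 (SE 0.198, adjusted p = 0.00151) and 1.31 (SE 0.2, adjusted p = 0.000263). Those libraries were picked by the levels of these same members, Uqcrh among them, so these p-values are no independent test. The named pseudogenes Uqcrh-ps1 and Uqcrh-ps2 were at no more than 0.507 CPM on average in any group.

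Complex IV, cytochrome c oxidase, had 5 of 10 subunits higher and 2 lower in Irgm1KO control (50.0% and 20.0%, beside 27.3% and 26.1% of all genes). Cox5b rose from 51.4 ± 1.44 to 69.1 ± 4.44 CPM (0.43, SE 0.0697, adjusted p = 7.2e-05) and Cox5a from 106 ± 3.21 to 126 ± 5.11 (0.25, SE 0.0514, adjusted p = 0.000617). Both are nuclear subunits on the matrix side of the enzyme. Cox4i1, the ubiquitous subunit 4 isoform that takes part in regulation by ATP, was at 264 ± 5.21 and 262 ± 7.05 CPM and was not called (-0.01, SE 0.0537). Per kilobase of transcript Cox4i1 had the highest level of the 52 members in every group, from 345.0 to 736.0 CPM per kb, and the lowest was Cox6a2 or Ndufb2. Cox4i1 in the first experiment was at 529 ± 258, 426 ± 178 and 556 ± 172 CPM, Cox5a at 157 ± 31.1, 177 ± 34.0 and 173 ± 34.1, and Cox5b at 72.2 ± 22.2, 77.6 ± 21.9 and 75.8 ± 22.9, with no call.

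With fenofibrate complex IV subunits rose in Irgm1KO. There 6 of 10 were called higher and 0 lower by edgeR (60.0% and 0%, beside 23.5% and 22.2% of all genes). All 10 values were above 0 (7 at an unadjusted p below 0.05, all higher). In WT 0 of 10 were called, beside 18.1% and 16.9% of all genes (1 at an unadjusted p below 0.05, higher). The interaction was called positive for 5 of 10 and negative for 0, beside 14.9% and 14.7% of all genes. Cox7b, a small membrane subunit, read 93.6, 97.4, 99.6 and 97.5 CPM without and 91.5, 95.2, 98.6 and 88.2 with fenofibrate in WT. In Irgm1KO it read 73.4, 78.4, 74.4 and 71.0 CPM without and 107, 133, 113 and 112 with the drug. The 2 WT groups overlapped, the Irgm1KO control libraries lay below them and the Irgm1KO fenofibrate libraries above them. The log2 fold changes were -0.39 in Irgm1KO control (SE 0.0603, adjusted p = 4.6e-05), 0.65 with fenofibrate in Irgm1KO (SE 0.0604, adjusted p = 3.4e-07) and -0.06 with fenofibrate in WT (SE 0.0602, adjusted p = 0.514), and the interaction was 0.7 (SE 0.0852, adjusted p = 2.1e-05).

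Cox6b1, which joins the monomers of the dimeric enzyme, was also lowest in Irgm1KO control. It was at 165 ± 7.24, 154 ± 11.7, 140 ± 3.62 and 188 ± 18.9 CPM in WT control, WT fenofibrate, Irgm1KO control and Irgm1KO fenofibrate. It fell in Irgm1KO control (-0.24, SE 0.0663, adjusted p = 0.00627) and rose with fenofibrate there (0.43, SE 0.0664, adjusted p = 5.7e-05), and the interaction was 0.53 (SE 0.0938, adjusted p = 0.000525). Cox4i1 rose with fenofibrate in Irgm1KO to 304 ± 25.7 CPM (0.22, SE 0.0537, adjusted p = 0.00353), while WT fenofibrate was at 261 ± 10.8. Cox5a and Cox5b were not called with fenofibrate, at 101 ± 4.26 and 53.7 ± 1.54 CPM in WT and at 127 ± 8.85 and 73.4 ± 9.23 in Irgm1KO. Cox6a1 was at 85.7 ± 4.25, 96.3 ± 4.78, 107 ± 8.67 and 124 ± 16.3 CPM in the 4 groups and at 123 ± 34.6, 127 ± 28.8 and 122 ± 32.3 in the first experiment. It rose in Irgm1KO control (0.32, adjusted p = 0.00287), and its rise with fenofibrate in Irgm1KO (0.21, adjusted p = 0.0398) was lost under 8 of 15 alternatives.

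In the first experiment Cox7b read 92.4, 232, 122 and 120 CPM in WT, 65.2, 66.2, 127 and 69.9 in Irgm1-KO and 114, 132, 118 and 181 in Irgm_IFNAR-KO. Irgm1-KO replicate 3 overlapped with WT and the other 3 lay below it, and the fold missed the threshold (-0.78, SE 0.3, adjusted p = 0.0559). The 3 libraries that stood apart were picked by the levels of these same members, so values without them are no independent test. Without them Cox7b was called lower in Irgm1-KO (-0.71, SE 0.106, adjusted p = 0.00027) and higher in Irgm_IFNAR-KO than in Irgm1-KO (0.82, SE 0.106, adjusted p = 8.5e-05). Cox6b1, at 212 ± 57.0, 159 ± 33.1 and 218 ± 45.3 CPM, was called lower in Irgm1-KO without them (-0.35, SE 0.0997, adjusted p = 0.0137).

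Leaving out the 3 libraries raised the calls between Irgm1-KO and WT to 9 higher and 8 lower of 52, and those between Irgm_IFNAR-KO and Irgm1-KO to 16 higher and 7 lower. Calls over all genes rose as well, from 5660 of 13998 to 7243 of 13999 between Irgm1-KO and WT (51.6% of the latter higher). Between Irgm_IFNAR-KO and Irgm1-KO they rose from 5998 to 7652 (47.2% of the latter higher). The members then called higher in Irgm1-KO were Ndufa10, Ndufs4 (0.52), Ndufs7 (0.36), Sdha (0.28), Uqcrc1 (0.25), Uqcrq (0.41), Cyc1 (0.43), Cycs (1.02) and Cox6a2 (3.15). Those called lower were Ndufa1 (-0.43), Ndufa6, Ndufb5, Ndufb10, Uqcrh, Cox6b1, Cox6c (-0.46) and Cox7b. These libraries were left out after their values for these same members had been seen, so the counts are no independent test. With log2 Xist as a covariate and all libraries kept, 21 were called higher and 8 lower in Irgm1-KO, and 34 higher in Irgm_IFNAR-KO against WT. Over all 13998 genes the covariate gave 8409 calls in Irgm1-KO, of which 50.4% were higher. In Irgm_IFNAR-KO against WT it gave 4207 (49.6% higher), where the main fit gave 1702.

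The knockout comparisons of the 2 experiments share no library. The log2 fold changes had the same sign in 35 of 52 members (67.3%), where 78.9% of 13676 genes tested in both had the same sign. Pearson's r across the members was 0.97 and Spearman's 0.88, and without Cox6a2 and Cycs they were 0.90 and 0.86 over 50 members. Across all genes they were 0.83 and 0.76. Genes are not independent replicates, and these are descriptions. All 3 members called higher in Irgm1-KO were among the 30 called higher in Irgm1KO control, so 3 of 3 of the first list and 3 of 30 of the second were shared. The 5 members lower in Irgm1KO control (Ndufa1, Ndufb3, Uqcrh, Cox6b1 and Cox7b) were below 0 in the first experiment as well, without a call, and 21 of the 30 higher ones were above 0 there.

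**Figure D4:**
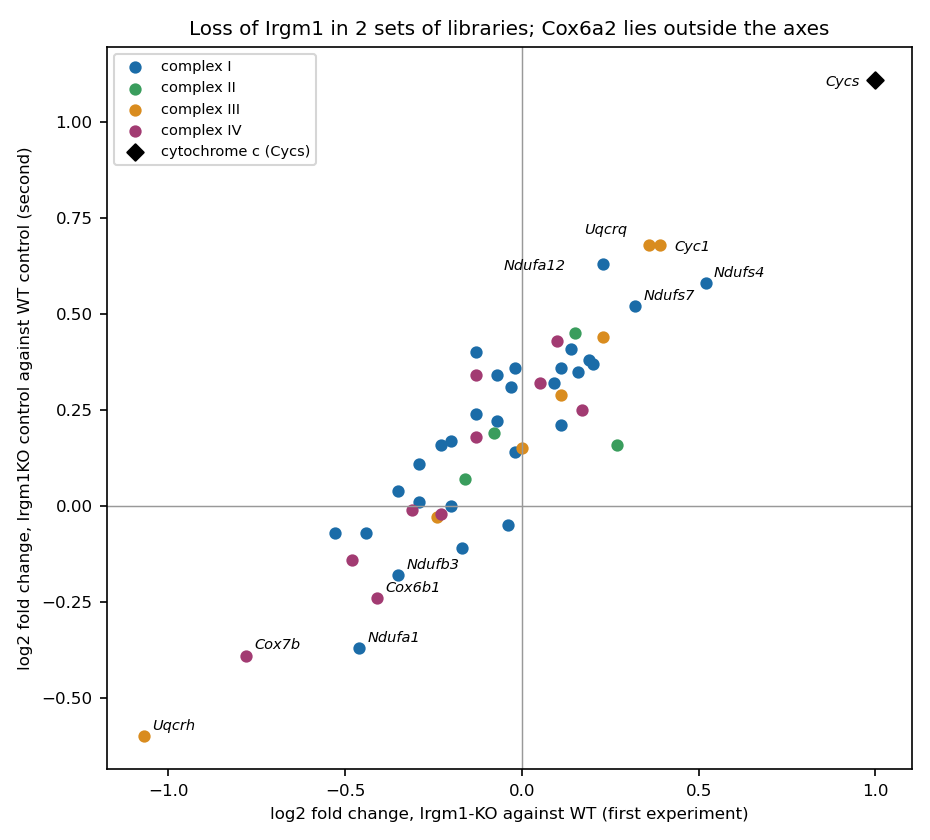
Log2 fold change of each member for Irgm1-KO against WT in the first experiment (horizontal axis) and Irgm1KO control against WT control in the second (vertical axis); Cox6a2, at 3.46 and 3.31, lies outside the axes. Cycs lies at 1.00 and 1.11, and Uqcrh and Cox7b lie below 0 on both.

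The calls were also counted by transcript length. Of 20 members with transcripts of at most 700 bases, 7 rose and 3 fell in Irgm1KO control (median 0.14), whereas of 16 with more than 1200 bases 12 rose and 0 fell by edgeR (median 0.30). With fenofibrate in Irgm1KO 10 of the short and 4 of the long members rose, and 0 and 2 fell. Of all genes, 27.3% were called higher and 26.1% lower in Irgm1KO control, and 23.5% and 22.2% with fenofibrate in Irgm1KO. Over the 52 members the Spearman correlation of log2 fold change with length was 0.38 and 0.32 for the knockout comparisons of the first and second experiment, and -0.43 for fenofibrate in Irgm1KO. In all genes of the same length classes the medians were -0.01 (1185 genes) and 0.00 (12211 genes) in Irgm1KO control, and 0.12 and 0.00 with fenofibrate in Irgm1KO. In Irgm1-KO they were -0.3 (1125 genes) and 0.01 (11397 genes), where the short and long members had medians of -0.18 and 0.1. Members share libraries, so these are descriptions, and the part of length in the results was not tested. Members with an NRF1 core in the promoter window were called higher in Irgm1KO control in 8 of 12 cases (median 0.34), and those without in 16 of 29 (median 0.21). For the ETS core these were 6 of 10 (0.2) and 18 of 31 (0.25), and for the cAMP response element 3 of 5 (0.35) and 21 of 36 (0.22). With fenofibrate in Irgm1KO, 3 of 12 members with an NRF1 core rose and 12 of 29 without. For the ETS core 4 of 10 and 11 of 31 rose, and for the cAMP response element 2 of 5 and 13 of 36. Calls were not counted over all genes with a motif or of a length class, so these counts have no baseline of that kind. The part of motifs in the results was not tested.

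Subunits encoded in mitochondrial DNA were lower in Irgm1-KO and Irgm1KO control cells than in WT. Of 13, 7 were tested. All 7 fell in Irgm1-KO and in Irgm1KO control, where 20.7% and 26.1% of all genes were called lower. The 7 rose in Irgm_IFNAR-KO against Irgm1-KO (21.5% of all genes) and with fenofibrate in Irgm1KO (23.5%). With fenofibrate in WT 6 fell (16.9% of all genes). In Irgm_IFNAR-KO against WT 3 rose (3.94% of all genes), among them mt-Cytb (0.35) and mt-Nd2 (0.3, SE 0.0702, adjusted p = 0.0127). The tested and untested ones present in each table took 1.25% ± 0.0842, 0.474% ± 0.0235 and 1.39% ± 0.0794 of counts in WT, Irgm1-KO and Irgm_IFNAR-KO, and 1.73% ± 0.142, 1.26% ± 0.117, 0.777% ± 0.0985 and 1.44% ± 0.0568 in WT control, WT fenofibrate, Irgm1KO control and Irgm1KO fenofibrate (SD, n = 4). The tables hold different numbers of these genes, so the shares are set side by side within an experiment only. mt-Cytb, the only complex III subunit from mitochondrial DNA, was at 1144.1 ± 56.5, 275 ± 34.7 and 1462.1 ± 57.2 CPM in the first experiment (-2.06 in Irgm1-KO, SE 0.0907, and 2.41 in Irgm_IFNAR-KO against Irgm1-KO). It was at 1972.0 ± 159, 1049.7 ± 134, 639 ± 127 and 1240.4 ± 53.2 CPM in the second (-1.63 in Irgm1KO control, SE 0.12, interaction 1.87, SE 0.167). mt-Nd1 rose by 2.1 (SE 0.0839) in Irgm_IFNAR-KO against Irgm1-KO, and mt-Nd5 fell in WT with fenofibrate (-0.92, SE 0.11, adjusted p = 1.5e-05).

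**Figure D5:**
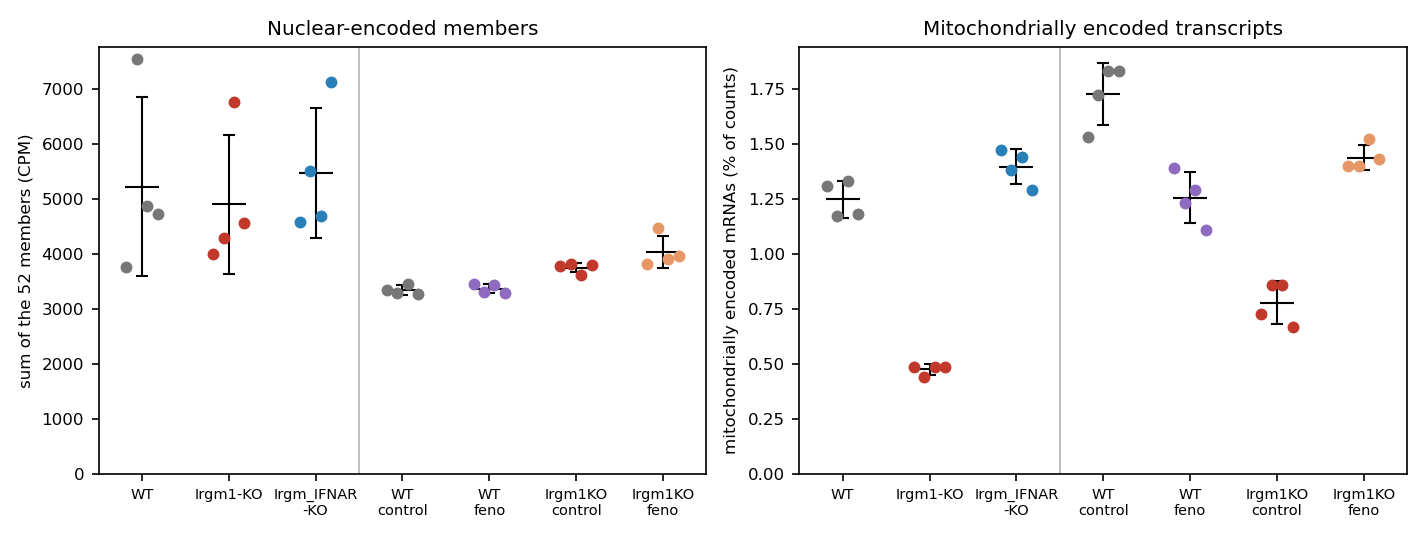
Summed CPM of the 52 nuclear members (left) and percent of counts from mitochondrially encoded subunits (right) on the vertical axes, per library in the 7 groups, with mean and SD as bars. The line divides the experiments. The mitochondrially encoded share is lowest in Irgm1-KO (0.474%) in the first and Irgm1KO control (0.777%) in the second, and the nuclear sum is 3340.1 in WT control and 3750.1 in Irgm1KO control.

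Assembly factors, which build the complexes but are not part of them, were counted against all genes in the same way. Of 48 tested, 13 rose and 1 fell in Irgm1-KO (19.8% and 20.7% of all genes), and 1 rose and 8 fell in Irgm_IFNAR-KO against Irgm1-KO (21.5% and 21.3%). In Irgm1KO control 30 rose and 1 fell (27.3% and 26.1% of all genes), with a median log2 fold change of 0.29. With fenofibrate 18 rose and 2 fell in WT (18.1% and 16.9% of all genes), and 11 rose and 15 fell in Irgm1KO (23.5% and 22.2%), with an interaction called positive for 3 and negative for 19 (14.9% and 14.7%). Sco1, a copper carrier for complex IV, was at 24.3 ± 2.46, 83.8 ± 3.95 and 16.8 ± 0.536 CPM in WT, Irgm1-KO and Irgm_IFNAR-KO (1.79, SE 0.081, adjusted p = 1.6e-08, then -2.32, SE 0.0826), and fell below WT in Irgm_IFNAR-KO (-0.53, SE 0.0796, adjusted p = 0.000732). It was at 20.6 ± 1.8, 19.6 ± 1.77, 53.8 ± 8.36 and 23.4 ± 3.13 CPM in the second experiment, higher in Irgm1KO control (1.39, SE 0.113) and lower with fenofibrate there (-1.2, SE 0.112). Cox18, which inserts a complex IV subunit into the membrane, rose in Irgm1-KO (1.22, SE 0.0866) and in Irgm1KO control (1.07, SE 0.0786), was lower in Irgm_IFNAR-KO than in Irgm1-KO (-1.28, SE 0.0867) and had an interaction of -0.76 (SE 0.11). In WT with fenofibrate Lyrm7 (0.73, SE 0.149, adjusted p = 0.00126) and Ecsit (0.6, SE 0.0791, adjusted p = 3.2e-05) rose most, and in Irgm1KO Cox20 fell (-0.58, SE 0.0806, adjusted p = 2.1e-05).

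The ATP synthase, which uses the proton gradient, and the remaining structural subunits were counted in the same way. Of 18 ATP synthase genes 6 rose and 2 fell in Irgm1KO control (27.3% and 26.1% of all genes), 9 rose and 1 fell with fenofibrate in Irgm1KO (23.5% and 22.2%), and 8 interactions were positive and 0 negative (14.9% and 14.7%). Fenofibrate in WT gave 0 rises and 2 falls (18.1% and 16.9%). Of the same 18, 0 rose and 1 fell in Irgm1-KO (19.8% and 20.7%), and 1 rose in Irgm_IFNAR-KO against Irgm1-KO (21.5%). Of 11 remaining subunits 4 rose and 2 fell in Irgm1KO control (27.3% and 26.1% of all genes). With fenofibrate 8 rose and 0 fell in Irgm1KO (23.5% and 22.2%), and 1 rose and 1 fell in WT (18.1% and 16.9%). In Irgm1-KO 1 rose and 2 fell (19.8% and 20.7%). Other tissue isoforms were scarce. Cox6b2, a testis isoform, was at 0.486 ± 0.0629 CPM in WT and 0.0598 ± 0.0301 in Irgm1-KO (-2.93, SE 0.331, adjusted p = 2.1e-05), at 0.166 ± 0.0552 in Irgm_IFNAR-KO (-1.54 against WT), and fell in Irgm1KO control (-2.1) and with fenofibrate in WT (-1.39). Cox4i2, an isoform of lung, reached 0.198 ± 0.103 CPM with fenofibrate in Irgm1KO (1.93, SE 0.458, interaction 2.17), and Cox7a1, a muscle isoform, 1.07 ± 0.186 (1.18, SE 0.188, adjusted p = 8e-05).

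Among 11 tested transcriptional regulators of respiratory genes 8 rose and 3 fell in Irgm1KO control (27.3% and 26.1% of all genes), 4 rose and 4 fell in Irgm1-KO (19.8% and 20.7%), and 2 rose and 7 fell with fenofibrate in Irgm1KO (23.5% and 22.2%). Fenofibrate in WT gave 0 rises and 2 falls (18.1% and 16.9%). The interaction was positive for 2 and negative for 2 (14.9% and 14.7% of all genes). Esrra, the oestrogen-related receptor alpha that drives many respiratory genes, was at 46.6 ± 5.02, 69.2 ± 5.51 and 48.5 ± 4.59 CPM in WT, Irgm1-KO and Irgm_IFNAR-KO, and at 29.2 ± 1.76, 26.3 ± 0.802, 41.9 ± 2.61 and 29.0 ± 2.51 CPM in the second experiment. It rose in Irgm1-KO (0.57, SE 0.0971, adjusted p = 0.000538) and in Irgm1KO control (0.52, SE 0.0625, adjusted p = 3.2e-06), and fell with fenofibrate in Irgm1KO (-0.53, SE 0.0626, adjusted p = 4e-06). Esrra was chosen for mention after its values were seen.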

How the data were processed

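For each experiment the authors deposited raw counts of reads for Ensembl genes (15423 and 56941 rows). The submitters' processing notes name fastp, STAR, DESeq2 and the build GRCm39. Counting tool, annotation and strand setting were not given in the sources used here. Members with near-identical copies, overlapping genes or antisense partners are therefore uncertain. RNeasy Plus and a Kapa mRNA HyperPrep kit were used, per the labels' protocols.

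Each column was matched to its sample by name, and groups came from the titles. In R 4.3.3, edgeR 4.0.16 (limma 3.58.1) filtered genes with filterByExpr (minimum count 10, minimum total 15), leaving 13998 and 15429, scaled libraries by TMM and fitted all groups of an experiment with robust glmQLFit. Contrasts were tested with glmQLFTest, adjusted by Benjamini-Hochberg over all genes at 0.05. SEs were taken as the log2 fold change over the root of its F value. The fit was tested on simulated counts: for the knockout comparison of the first experiment it recovered 33 of 100 genes changed by 0.5 and 91 of 100 changed by 1.0 on the log2 scale, and for that of the second 88 and 99. Changed genes were drawn at random from well-expressed genes, with noise independent between genes. The members shifted together in some libraries of the first experiment, so these recoveries do not describe them or the scarce Cox6a2. All 42 pairs of replicates differed by more than sampling noise.

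Named with values were Cycs, Cox6a2, chosen core subunits (Ndufs1, Ndufv1, Ndufs3, Ndufs7, Ndufs8, Sdha, Sdhb, Uqcrc1, Uqcrfs1, Cyc1, Cox4i1, Cox5a and Cox5b), members called in 2 or more of the 6 pairwise comparisons, the 3 largest rises and falls per comparison, and the 2 largest of each kind among other genes of the pathway. Ndufv2 and Uqcrc2 were added after their values were seen. The members and lists were chosen with earlier results of these data known. Within a genotype of the second experiment, same-numbered control and fenofibrate libraries deviated together (r from 0.38 to 0.49 in WT and 0.26 to 0.37 in Irgm1KO, other pairings at most 0.14), so these numbers pair the libraries. In the first experiment r ran from -0.48 to 0.52, and the numbers were not taken as pairs. Alternatives were DESeq2 1.42.0 (test, or size factors only), no filter, only the groups compared, log2 Xist as a covariate, a replicate block, each library left out, and, added after seeing the data, the 3 libraries that stood apart left out and the most abundant gene left out. Transcript lengths and promoters came from reference tables of an earlier build than the counts.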

Additional observations from a re-analysis of the deposited data

Results flagged for a closer look

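The 31 members named by rule, so not Ndufv2 and Uqcrc2, were examined in each of the 7 groups of 4 libraries. In 21 of these 217 sets the highest or lowest library was separated from the other 3 by more than Dixon's 95% critical value. Independent sets would give about 1 in 20 by chance. The members shifted together in some libraries, so the sets are not independent and this count is no test. Irgm1-KO replicate 3 was the high library for 7 members. It read 26.7 CPM for Ndufa5 (others 20.2 to 21.0), 178 for Ndufb8 (54.8 to 73.7), 80.0 for Ndufs4 (47.9 to 52.8), 260 for Uqcrh (100 to 125), 125 for Cyc1 (75.9 to 82.4), 167 for Cycs (123 to 130) and 127 for Cox7b (65.2 to 69.9). Irgm_IFNAR-KO replicate 4 was high for 5, with 26.8 CPM for Ndufa5 (18.8 to 19.3), 89.4 for Ndufs3 (64.5 to 66.5), 85.8 for Cycs (63.1 to 66.6), 110 for Cox5b (61.9 to 66.0) and 286 for Cox6b1 (192 to 202). WT replicate 2 was high for Ndufc1, at 37.6 CPM (22.4 to 24.5).

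In the second experiment Irgm1KO fenofibrate replicate 2 was high for Ndufb5 (61.8 CPM, others 52.7 to 53.6), Sdhc (157, others 142 to 145) and Cox6b1 (217, others 177 to 181). Low libraries were WT control replicate 2 for Ndufa12 (18.6 CPM, others 21.7 to 21.9) and Ndufs7 (22.6, others 24.8 to 25.0), WT fenofibrate replicate 1 for Ndufs4 (28 CPM, others 30.2 to 30.3), and Irgm1KO control replicate 3 for Uqcrq (48.1, others 52.6 to 53.5) and Cox5a (119, others 128 to 130).

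The fenofibrate effect differed between the genotypes for 17 members by the interaction test of edgeR. On the log2 scale, Irgm1KO minus WT, it was positive for Ndufa1 (0.36), Ndufa3 (0.26), Ndufb2 (0.31), Ndufb3 (0.22), Ndufs8 (0.24), Uqcrfs1 (0.23), Uqcrh (0.81), Cox4i1 (0.23), Cox6b1 (0.53), Cox6c (0.42), Cox7a2 (0.35) and Cox7b (0.7). It was negative for Ndufs4 (-0.3), Uqcrq (-0.39), Cyc1 (-0.27), Cycs (-0.44) and Cox6a2 (-4.46). The WT and Irgm1KO effects share no library, and 12 of the 17 calls held under every alternative.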

How the results depend on the processing

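Of 96 calls of single members, 76 held under every alternative run. They were 3 of 3 for Irgm1-KO against WT, 2 of 5 for Irgm_IFNAR-KO against Irgm1-KO, 33 of 35 for Irgm1KO control against WT control, 9 of 12 and 17 of 24 for fenofibrate in WT and in Irgm1KO, and 12 of 17 for the interaction. The causes of the changes below were not tested. Calls over all genes changed with the settings too. Without the 3 libraries that stood apart they rose from 5660 to 7243 for Irgm1-KO against WT. For Irgm_IFNAR-KO against Irgm1-KO they rose from 5998 to 7652. With the Xist covariate they were 8409 and 8901, and for Irgm_IFNAR-KO against WT they rose from 1702 to 4207. Irgm1-KO against WT called 3 higher and 0 lower members, which became 9 and 8 without the 3 libraries that stood apart and 21 and 8 with the Xist covariate. DESeq2's test gave 5 higher and 2 lower, its size factors 1 lower, and leaving out the most abundant gene 1 lower. Leaving out 1 library gave 3 to 6 higher (6 without WT replicate 2) and 0 to 7 lower (7 without Irgm1-KO replicate 3, 3 without WT replicate 1). Irgm_IFNAR-KO against Irgm1-KO called 3 higher and 2 lower, which became 16 and 7 without the 3 libraries and 21 and 8 with Xist. DESeq2 gave 6 higher. Leaving out 1 library gave 0 to 12 higher (12 without Irgm1-KO replicate 3, 0 without Irgm1-KO replicate 1, 2 or 4 or Irgm_IFNAR-KO replicate 2 or 4) and 2 to 3 lower. Irgm_IFNAR-KO against WT called 0 higher, 1 by DESeq2 and 34 with Xist, where Ndufa7 and Sdhb changed sign to 0.35 and 0.36. For fenofibrate in Irgm1KO the 3 lower members became 5 with the replicate block, and 2 to 10 with 1 library left out (10 without Irgm1KO fenofibrate replicate 2). The interaction's 12 positive members ranged from 7 (without WT fenofibrate replicate 4) to 12, and its 5 negative ones from 5 to 11 (without Irgm1KO fenofibrate replicate 2). The replicate block gave 3 higher and 0 lower, 3 and 2, and 0 and 0 in the first experiment, where numbers do not pair the libraries, and 31 and 5, 11 and 4, 27 and 5, and 13 and 6 in the second. Depth limits Cox6a2, at 12 to 40 counts per WT library.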
